A study of Mus musculus with 4 samples.

Results

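Interstitial macrophages of the mouse lung were followed across 4 single-cell RNA-Seq libraries that crossed age with mechanical ventilation. Members were taken from the deposited count tables by a rule on transcripts. A barcode with 200 to 7500 genes and at most 10% mitochondrial UMIs (unique molecular identifiers, 1 per captured transcript) was a member when *C1qa*, *C1qb* and *C1qc* together gave at least 10 UMIs. In addition, fewer than 3 of 8 alveolar macrophage markers (*Marco*, *Chil3*, *Krt79*, *Plet1*, *Fabp1*, *Ear1*, *Siglecf* and *Cidec*) could be detected, and *Cdh5* (endothelium) and *Cd79a* (B cells) had to be at 0. The rule found 242 of 11846 barcodes that met the gene and mitochondrial limits, out of 15428 in all. All mice were C57BL/6 wild-type males. The sample records list a diet brought down gradually to 70% of ad libitum intake for every group. The paper describes that diet for mice aged to 22 months and does not name it for the young mice, so diet may have differed with age. Young mice were 2 to 3 months old and aged mice 22 months. Ventilated mice were anesthetized with ketamine and medetomidine, given buprenorphine, and ventilated for 3 hours at 150 breaths/min with a tidal volume of 20 mL/kg capped at 0.6 mL, a positive end-expiratory pressure of 0 cm H2O and an inspired oxygen fraction of 1.0. Nonventilated mice were naive and had none of these procedures, so ventilation, anesthesia, analgesia, vascular lines and oxygen cannot be told apart. Each library pooled cells of the left lobe from 3 mice, which had been dissociated with enzymes and stored frozen. There was 1 library per group, so no test between groups was possible, no p-value is given, and every interval below covers counting error only.

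The young nonventilated library held 63 members, young ventilated 51, aged nonventilated 52 and aged ventilated 76. They were 2.14% (95% exact binomial interval 1.65 to 2.73), 1.53% (1.14 to 2.01), 1.72% (1.29 to 2.25) and 2.98% (2.35 to 3.71) of the filtered barcodes of these libraries, in that order. The interval of aged ventilated lay above those of young ventilated and aged nonventilated and overlapped that of young nonventilated. Summed over members, the libraries gave 1003202, 845514, 952532 and 1425469 UMIs in the same order, with a median per cell of 14397, 15819, 15711.5 and 17821. A gene without a UMI was therefore only known to lie below 2.99, 3.55, 3.15 or 2.10 CPM (UMIs of a gene divided by all member UMIs of the library and scaled to 1000000), the level of 3 UMIs. No cell gave more than 6.74% of the member UMIs of its library. Pairs of libraries shared between 0 and 7 barcodes, and no member was shared.

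The members were chosen by their C1q, alveolar marker, *Cdh5* and *Cd79a* counts, which are given as a description and not as a result. Members held a median of 125, 70, 129.5 and 110 C1q UMIs per cell in young nonventilated, young ventilated, aged nonventilated, then aged ventilated. Just inside the limit, 7, 13, 4 and 9 members had 10 to 19 C1q UMIs. Just outside it, 5, 6, 2 and 3 barcodes that met the other conditions had 5 to 9. A further 2, 0, 1 and 0 barcodes with enough C1q were left out for 3 or more alveolar macrophage markers, and 5, 2, 7 and 2 for *Cdh5* or *Cd79a*.

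Other markers of macrophages, which the rule did not use, were compared with the label. *Csf1r*, the receptor for the macrophage growth factor CSF1, was detected in 95% of members. *Aif1* was detected in 81.4% of members and in 1.7% of 654 alveolar macrophages of the same libraries, and *Car4*, an alveolar macrophage gene, in 0.8% and 82.6%. *Ace*, a gene of nonclassical monocytes, was found in 8.7% of members and in 79.3% of 961 nonclassical monocytes. Over the whole lists, 84.1%, 70.6%, 94.2% and 85.5% of members in young nonventilated, young ventilated, aged nonventilated, then aged ventilated held a UMI of the 12 alveolar macrophage genes outside the rule, and 96.8%, 92.2%, 100% and 88.2% one of the 10 nonclassical monocyte genes. Those lists were led in every library by *Lpl* and *Nr4a1*, which are not limited to these cells. The members were not uniform: *Mrc1* was detected in 84.7%, *H2-Aa* in 86.8%, *Cx3cr1* in 65.3%, *Folr2* in 18.6% and *Lyve1* in 16.1%.

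Interstitial macrophages live in the tissue around airways, vessels and nerves, outside the airspace that alveolar macrophages occupy. A subset marked by *Lyve1*, *Folr2* and *Cd163* lies close to blood vessels, and a second, rich in MHC class II, lies closer to nerves and airways and presents antigen to T cells. Both take up debris, respond to injury by releasing cytokines and chemokines that draw in other leukocytes, and can be refilled from circulating monocytes. Reactive oxygen and heme activate the transcription factor NRF2, which binds antioxidant response elements, while interferons act through elements called ISREs.

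The regulatory sequences of genes from both of these pathways are shown first, because genes of both pathways rose after ventilation at both ages, as described below. Promoters (250 bases before to 50 after the annotated start, RefSeq, GRCm38.p6) were searched on both strands for TGACNNNGC, the core of the antioxidant response element, and for the core of the ISRE (TTTC, 2 free bases, TTTC). The first was in 12.4% of all 32851 promoters and the second in 3.44%. Among the genes of the NRF2 and oxidative stress list, 6 of 16 with a promoter in the table held the first (*Gclm*, *Mafg*, *Me1*, *Prdx1*, *Srxn1* and *Txnrd1*), and 12 of 18 of the interferon-inducible list held the second. A match is a description of the letters and not a site shown to be bound. Capitals mark the match, here in the reverse orientation in each of the 5 promoters. *Gclm* (glutamate-cysteine ligase modifier, glutathione synthesis) lies on the + strand with its promoter at chr3:122245307-122245606 and the match 134 bases before the start. *Srxn1* (sulfiredoxin, which restores oxidized peroxiredoxins) has its promoter at chr2:152105274-152105573 on the + strand with the match 28 bases after the start. *Txnrd1* (thioredoxin reductase) has 1 promoter with a match, at chr10:82858956-82859255 on the + strand, 92 bases before the start. *Isg15* (a ubiquitin-like protein induced by interferon) has its promoter at chr4:156200769-156201068 on the - strand with 3 overlapping matches, at 78, 72 and 66 bases before the start. *Cxcl10* (a chemokine for activated T cells) has its promoter at chr5:92348840-92349139 on the - strand with 1 match at 213 bases before the start.
Gclm: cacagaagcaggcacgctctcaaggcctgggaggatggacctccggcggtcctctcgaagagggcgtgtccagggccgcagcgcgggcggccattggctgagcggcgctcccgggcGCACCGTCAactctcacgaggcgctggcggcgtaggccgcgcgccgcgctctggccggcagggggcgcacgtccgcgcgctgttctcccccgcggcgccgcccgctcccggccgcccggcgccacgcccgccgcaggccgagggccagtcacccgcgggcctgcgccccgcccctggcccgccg
Srxn1: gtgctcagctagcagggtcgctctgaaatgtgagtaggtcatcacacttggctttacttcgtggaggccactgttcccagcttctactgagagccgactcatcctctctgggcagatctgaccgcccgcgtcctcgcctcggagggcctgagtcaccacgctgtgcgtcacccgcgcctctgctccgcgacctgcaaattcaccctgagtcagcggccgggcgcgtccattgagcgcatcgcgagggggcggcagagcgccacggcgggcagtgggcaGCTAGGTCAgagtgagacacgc
Txnrd1: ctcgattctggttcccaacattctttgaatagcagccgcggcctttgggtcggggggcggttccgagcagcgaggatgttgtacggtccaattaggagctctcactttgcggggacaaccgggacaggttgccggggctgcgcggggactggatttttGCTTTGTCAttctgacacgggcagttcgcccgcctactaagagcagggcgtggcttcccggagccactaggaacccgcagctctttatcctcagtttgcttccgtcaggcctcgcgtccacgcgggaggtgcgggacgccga
Isg15: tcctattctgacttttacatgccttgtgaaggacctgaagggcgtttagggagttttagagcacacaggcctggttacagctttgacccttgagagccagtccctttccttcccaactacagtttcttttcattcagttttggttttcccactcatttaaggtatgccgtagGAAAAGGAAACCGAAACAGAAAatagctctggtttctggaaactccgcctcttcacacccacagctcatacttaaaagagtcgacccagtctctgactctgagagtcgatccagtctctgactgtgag
Cxcl10: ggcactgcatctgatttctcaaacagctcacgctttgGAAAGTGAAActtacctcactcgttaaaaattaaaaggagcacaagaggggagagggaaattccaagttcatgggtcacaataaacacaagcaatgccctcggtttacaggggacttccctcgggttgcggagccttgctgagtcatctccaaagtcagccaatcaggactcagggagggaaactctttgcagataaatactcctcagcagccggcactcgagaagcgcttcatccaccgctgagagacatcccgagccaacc

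The first question of the design was what 3 hours of ventilation did at each age. Ratios are of CPM summed over the members of each library, and a gene was counted as past the fold at 2-fold or more if it had a mean of at least 50 CPM over both libraries and at least 20 UMIs in 1. By this rule 670 of 3361 genes (19.9%) were past the fold in young mice, 325 higher (9.67%) and 345 lower (10.3%) after ventilation. In aged mice 342 of 3380 (10.1%) were past the fold, 178 higher (5.27%) and 164 lower (4.85%). These shares over all genes are the reference for each list count of ventilation below. Median log2 ratios over all genes were 0.03 and -0.01. Of the 325 genes higher in young mice, 282 were also higher in aged mice and 120 were past the fold there, which is 36.9% of the young set and 67.4% of the 178 aged genes. Of the 345 lower genes, 312 were also lower in aged mice and 90 were past the fold (26.1% and 54.9%). Across 3120 genes counted at both ages, the log2 ratios had a Pearson r of 0.70, and 3 genes were past the fold in opposite directions. The gap between the ages depended on which age chose the genes. Genes past the fold upward in young mice had a median log2 of 1.41 in young and 0.83 in aged mice, and those past it upward in aged mice had 1.46 in aged and 1.42 in young mice. For the lower genes the medians were -1.42 and -0.76 when chosen in young mice, and -1.33 in aged and -1.23 in young mice when chosen in aged mice.

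**Figure D1:**
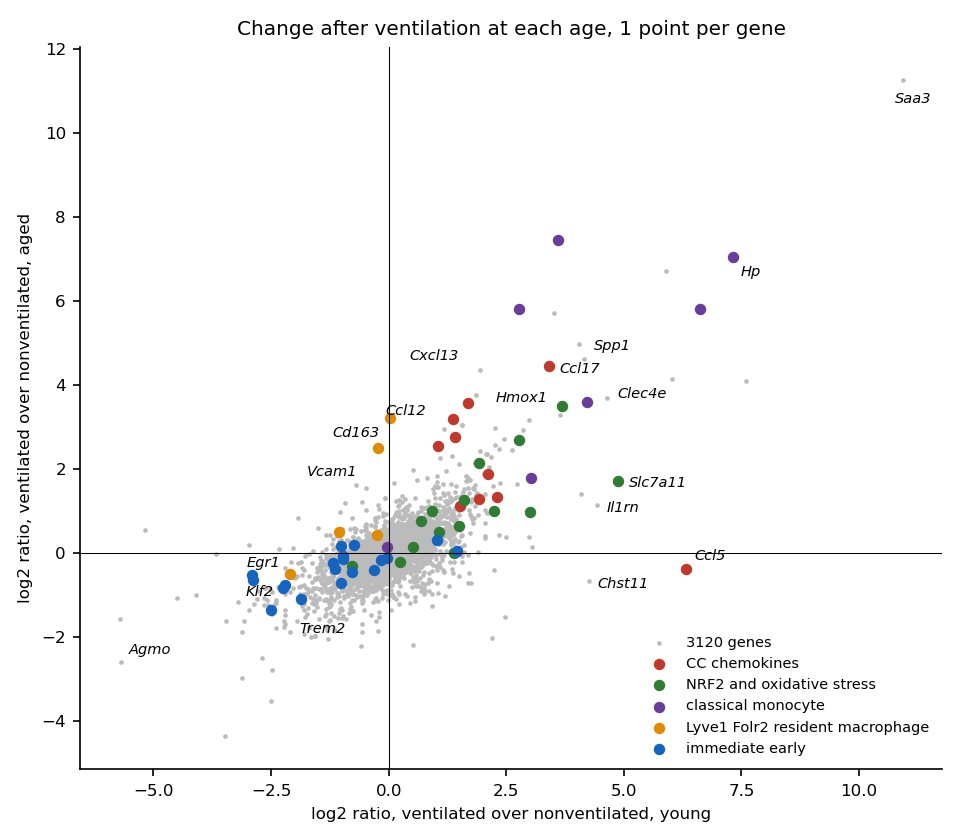
Each point is 1 of 3120 genes, with the log2 ratio of ventilated over nonventilated CPM in young mice on the x axis and in aged mice on the y axis, and 5 gene lists colored. Chemokine and NRF2 genes lie mostly in the upper right, immediate early genes mostly at the left below 0, and *Chst11* (4.26 in young, -0.67 in aged) lies apart, while the ratio of *Saa3*, which had 0 UMIs in both nonventilated libraries, depends on the 1 UMI added before the log.

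Many inflammatory cytokine and chemokine genes were higher after ventilation in interstitial macrophages of both ages. *Il1b*, the secreted form of interleukin 1, stood at 1364 CPM in young nonventilated, 5035 in young ventilated, 1402 in aged nonventilated and 3773 in aged ventilated. It was thus higher after ventilation at both ages, 3.69-fold (3.47 to 3.93) in young and 2.69-fold (2.54 to 2.86) in aged mice. *Tnf* was at 311, 646, 361 and 465 CPM in the same order, 2.08-fold higher (1.80 to 2.39) in young and 1.29-fold (1.13 to 1.47) in aged mice, where it was not past the fold. In the list of pro-inflammatory cytokines 4 of 5 genes past the filter rose in young mice and 2 of 4 in aged mice, with median log2 ratios of 1.45 and 1.07. With each cell thinned to 4000 UMIs, *Il1b* was detected in 47.6%, 75.5%, 56.0% and 81.1% of members in the same order. B cell barcodes of the same libraries should lack the transcript and had a median of 7351 to 13218 UMIs. Thinned in the same way, they held it in 1.23%, 0%, 5.61% and 6.25%. With all their UMIs the shares were 7.32%, 7.14%, 6.42% and 16.5%.

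CC chemokines, which draw in monocytes and lymphocytes, rose nearly as a whole list. Of the genes past the filter, 11 of 12 rose in young and 9 of 10 in aged mice, against 9.67% and 5.27% of all genes. None fell by 2-fold or more, and the median log2 ratios were 1.71 and 2.22. *Ccl2*, the main ligand of CCR2 on monocytes, was at 804, 2136, 179.5 and 1230 CPM in young nonventilated, young ventilated, aged nonventilated, then aged ventilated. Its ratio was 2.66 (2.44 to 2.89) in young and 6.85 (5.86 to 8.07) in aged mice, and the larger aged ratio went with a lower aged baseline and not with a higher ventilated level. *Ccl7* (498, 1599, 48.3 and 587 CPM) and *Ccl12* (334, 857, 101 and 934 CPM) are the neighbors of *Ccl2* in gene and function. Their ratios were likewise larger in aged than in young mice, with 3.21-fold and 2.57-fold rises in young and 12.2-fold (9.03 to 16.7) and 9.27-fold (7.53 to 11.5) rises in aged mice. Both had a lower aged than young baseline, while the aged ventilated level was below the young one for *Ccl7* and above it for *Ccl12*. *Ccl3* (473, 1804, 256 and 629 CPM) and *Ccl4* (670, 2911, 439 and 1623 CPM), which draw in monocytes and T cells, rose at both ages, and 1 cell gave 56% of the young nonventilated UMIs of *Ccl4*. For *Ccl17* (160, 1709, 24.1 and 549 CPM), a CCR4 ligand, 73% of the young nonventilated UMIs came from 1 cell. When members with UMIs of 2 or more markers of any other cell type were left out, 10, 15, 7 and 9 cells remained, and the log2 ratios in aged mice turned to -0.13 for *Ccl2*, -0.82 for *Ccl3*, -0.35 for *Ccl4* and -4.98 for *Cxcl13*. *Ccl5*, made by T cells as well as macrophages, was at 1.99, 237, 58.8 and 45.6 CPM, and 50% to 82.1% of its UMIs in each library came from 1 cell.

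CXC chemokines were measured as a list of their own, and several of them act on neutrophils through CXCR2. *Cxcl2* was at 2238, 6485, 3022 and 3999 CPM, a 2.9-fold rise in young mice and a ratio of 1.32 in aged mice. *Cxcl1* was at 146, 823, 397 and 520.5 CPM, a 5.66-fold rise in young and a ratio of 1.31 in aged mice. In B cell barcodes *Cxcl1* was at 1.38, 578, 28.5 and 0.592 CPM and *Cxcl2* at 11, 295, 4.44 and 18.4 CPM, and 1 of the 28 young ventilated barcodes gave 99.5% and 99% of these UMIs. For both genes the aged nonventilated level of members lay above the young one and the aged ventilated level below the young one. *Cxcl13*, which guides B cells, was at 271, 1042, 69.3 and 1431 CPM, and 73% of the young ventilated UMIs came from 1 cell. *Cxcl10* was at 68.8, 378, 70.3 and 466 CPM, with 5.50-fold and 6.62-fold rises. *Cxcl9*, like *Cxcl10* a ligand of CXCR3, was at 0.997, 129, 6.30 and 129 CPM, with 92.7% and 77.7% of the UMIs in the ventilated libraries from 1 cell each. Over the list, 6 of 9 genes rose and 1 fell in young mice and 3 of 7 rose in aged mice, with median log2 ratios of 1.94 and 0.43. *Il1rn*, the antagonist of the interleukin 1 receptor, was at 25.9, 576, 93.4 and 207 CPM and rose 22.2-fold (15.0 to 34.4) in young and 2.21-fold (1.74 to 2.84) in aged mice.

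Many antioxidant genes and the metallothioneins *Mt1* and *Mt2* rose as well. *Hmox1*, heme oxygenase 1, was at 101 CPM in young nonventilated, 1307 in young ventilated, 71.4 in aged nonventilated and 819 in aged ventilated, a rise of 13-fold (10.6 to 16.1) and 11.5-fold (8.98 to 14.9). It was detected in 28.6%, 59.2%, 14.0% and 45.9% of thinned members, against at most 5.21% of thinned B cell barcodes in any library. With all UMIs, 3.66%, 3.57%, 6.42% and 10.3% of B cell barcodes held it. *Slc7a11*, the cystine importer that feeds glutathione synthesis, was at 18.9, 588, 154 and 514 CPM, 31.0-fold (19.7 to 52.0) and 3.33-fold (2.79 to 4.01) higher. The ventilated levels of *Slc7a11* were close, and the nonventilated levels differed 8.15-fold between the ages. The share of thinned members with *Slc7a11* was 3.17%, 53.1%, 18% and 56.8%. The promoter genes printed above behaved as follows. *Srxn1* was at 17.9, 150, 33.6 and 67.3 CPM with ratios of 8.37 and 2.00, *Gclm* at 27.9, 135, 36.7 and 75.1 CPM with ratios of 4.83 and 2.04, and *Txnrd1* at 232, 491, 219 and 312 CPM with ratios of 2.11 and 1.42. *Prdx1*, a peroxiredoxin, was at 398, 1036, 548 and 547 CPM, with ratios of 2.60 in young and 0.997 in aged mice. Over the NRF2 and oxidative stress list, 10 of 15 genes rose in young and 7 of 15 in aged mice and none fell by 2-fold or more, with median log2 ratios of 1.49 and 0.97. *Sod2*, the mitochondrial superoxide dismutase, rose 6.88-fold and 6.53-fold (116, 796, 118 and 768 CPM). The ferritin heavy chain gene *Fth1* was at 6287, 17716, 10619 and 16527 CPM, a 2.82-fold rise in young and a ratio of 1.56 in aged mice. The light chain gene *Ftl1* had ratios of 1.43 and 1.10. In aged nonventilated 1 cell gave 20.1% of the UMIs of the NRF2 list and 21.7% of those of the iron handling list, and *Fth1* led both. The aged baseline of *Fth1*, and so its aged ratio, leaned on that cell. Of the iron handling list 3 of 7 genes rose and 1 fell in young mice, and 3 of 6 rose in aged mice. The metallothioneins *Mt1* (1297, 4468, 1020 and 3011 CPM) and *Mt2* (145, 1059, 91.3 and 706 CPM), which bind zinc and copper, rose at both ages, *Mt2* by 7.32-fold and 7.73-fold. They were not limited to macrophages: in B cell barcodes *Mt1* was at 30.3, 2029.9, 283 and 249 CPM and *Mt2* at 4.14, 910, 39.3 and 50.3 CPM. In the young ventilated library 1 B cell barcode gave 72.2% and 71.6% of those UMIs, and 53.6% and 28.6% of the 28 barcodes held a UMI. The part of free RNA in the metallothionein ratios was not tested.

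**Figure D2:**
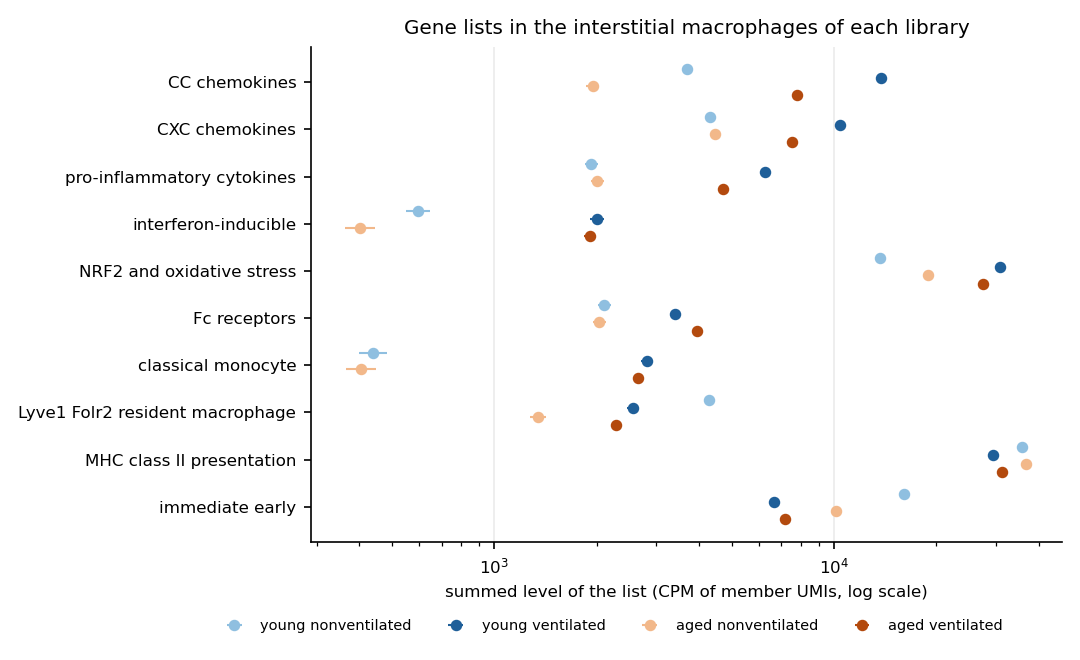
Summed CPM of 10 gene lists in each of the 4 libraries, on a log axis, with exact Poisson 95% intervals that cover counting error. CC chemokines (3702, 13770, 1947 and 7783 CPM) and classical monocyte genes (440, 2822, 405 and 2646 CPM) were higher in both ventilated libraries, and the resident list was lowest in aged nonventilated (1347 CPM).

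Of 24 interferon-inducible genes listed, 9 and 7 passed the filter, several of them only through the ventilated library. Among these, 8 of 9 rose in young and 6 of 7 in aged mice, with median log2 ratios of 2.44 and 3.05. The filter thus favored rises, and listed genes below it went both ways in young mice. Summed over the 23 genes measured, the list was at 596, 2009, 403 and 1910 CPM. In aged ventilated 1 cell gave 32.6% of these UMIs. *Isg15*, whose promoter is printed above, was at 22.9, 317, 14.7 and 175 CPM, 13.8-fold (9.02 to 22.2) and 11.9-fold (6.95 to 22.1) higher. *Irf7*, a factor that amplifies interferon responses, was at 17.9, 102, 0 and 95.4 CPM. *Rsad2*, the antiviral enzyme viperin, was at 1.99, 23.7, 0 and 124 CPM, with 74% of the aged ventilated UMIs from 1 cell. All 3 genes were low in both nonventilated libraries and higher in both ventilated ones. The rise was not limited to macrophages: in B cell barcodes *Isg15* was at 5.52, 98.3, 9.52 and 47.4 CPM, with a UMI in 39.3% of young ventilated barcodes. *Irf7* was at 9.65, 56.2, 12.7 and 11.3 CPM there, with a UMI in 42.9% of young ventilated barcodes. The part of free RNA in these ratios was not tested.

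Some receptors for antibody, fungal sugars and modified lipids rose, while others of the same lists fell. Of Fc receptors 2 of 5 rose and 1 fell in young and 3 of 6 rose in aged mice. Of pattern recognition genes 3 of 11 rose and 3 fell and then 3 of 10 rose and 1 fell. Of efferocytosis and scavenger receptors 2 of 12 rose and 5 fell and then 3 of 11 rose and 1 fell. Over all genes 9.67% were higher and 10.3% lower in young mice, and 5.27% and 4.85% in aged mice. *Fcgrt*, the neonatal Fc receptor that recycles IgG, was the Fc receptor that fell, at 190.4, 31.9, 135 and 75.1 CPM. *Fcgr1*, the high-affinity IgG receptor, was at 58.8, 268, 38.8 and 195 CPM, 4.57-fold (3.42 to 6.19) and 5.02-fold (3.55 to 7.28) higher, and was detected in 27%, 61.2%, 12.0% and 37.8% of thinned members and in no thinned B cell barcode. The inhibitory receptor *Fcgr2b* was at 222, 561, 219 and 690.3 CPM, with ratios of 2.52 and 3.15. *Clec4e* (Mincle), a lectin for microbial glycolipids, was at 14.0, 370.2, 34.6 and 460.2 CPM, and *Clec4n* (Dectin-2), a lectin for fungal mannans, at 80.7, 390.3, 55.6 and 447 CPM. *Msr1*, scavenger receptor A, was at 64.8, 316, 66.1 and 396 CPM. In these 3 genes both ventilated libraries lay above both nonventilated ones, with rises of 26.5-fold and 13.3-fold for *Clec4e*, 4.83-fold and 8.03-fold for *Clec4n*, and 4.87-fold and 5.99-fold for *Msr1*. Among matrix genes, *Spp1* (osteopontin) was at 21.9, 406, 28.4 and 728 CPM and *Fn1* (fibronectin) at 37.9, 316, 132 and 461 CPM. Of the *Spp1* UMIs, 206 of 343 in young ventilated and 975 of 1038 in aged ventilated lay in the 18 and 25 members that held the classical monocyte panel described next, and without those members its ratios were 11.6 and 2.77. The *Fn1* levels of nonventilated members were near those in B cell barcodes (57.9 and 133 CPM). Over the matrix remodelling list 7 of 15 genes rose and 4 fell in young mice, and 5 of 14 rose and 3 fell in aged mice. *Saa3*, an acute-phase serum amyloid, had 0 UMIs in both nonventilated libraries and stood at 1946 CPM in young ventilated and 2580 in aged ventilated, which was at least 651-fold and at least 819-fold higher with 3 UMIs per library as the floor. It was found in 14.3% (5.94 to 27.2) and 20.3% of thinned ventilated members. In thinned B cell barcodes of the ventilated libraries it reached 7.41% (0.91 to 24.3) and 3.12% of barcodes. With all UMIs it was in 17.9% and 14.3% of them, at 16.8 and 9.48 CPM. The share in young ventilated thus lay within the counting error of the background share, while the level lay far above it.

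Genes of classical monocytes moved with these changes, and their values stand here beside them. The list of 9 classical monocyte genes summed to 440 CPM in young nonventilated, 2822 in young ventilated, 405 in aged nonventilated and 2646 in aged ventilated. Its genes with the most UMIs were *Ccr2*, *Plac8*, *Ccr2* and *Hp* in that order, 2 of its genes were at 0 in aged nonventilated and none in the other libraries, and 61.9%, 72.5%, 73.1% and 64.5% of members held a UMI of the list. *Ly6c2* was at 26.9, 337, 0 and 182 CPM, *Vcan* at 2.99, 388, 3.15 and 236 CPM, *Plac8* at 77.7, 536, 7.35 and 469 CPM, and *Hp* (haptoglobin) at 1.99, 474, 3.15 and 556 CPM. With cells thinned to 4000 UMIs, 2 of 63, 13 of 49, 2 of 50 and 19 of 74 members held at least 2 UMIs of a panel of 6 classical monocyte genes that included *Ly6c2*, *Vcan*, *Plac8*, *Hp* and *Ms4a4c*. Before thinning 5, 18, 3 and 25 members did, and 58, 33, 49 and 51 did not.

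Leaving out the members that held the monocyte panel changed the ratios of genes unequally. *Il1b* stayed 3.94-fold (3.67 to 4.23) higher in young and 2.72-fold (2.54 to 2.91) in aged mice. *Ccl2* had ratios of 3.27 and 9.57, and *Hmox1* of 17.6 and 7.18. CC chemokines rose in 10 of 12 genes and fell in 1 in young mice and rose in 9 of 10 in aged mice. *Saa3* had 6 UMIs in young ventilated and 188 in aged ventilated members outside the panel, against 1639 and 3490 inside it, where it reached 4473 and 6483 CPM. *F10*, coagulation factor X, had 1 and 44 UMIs outside the panel and 162 and 236 inside it. *Il1rn* without the panel members rose 33.6-fold in young mice and had a ratio of 1.27 (0.93 to 1.73) in aged mice. *Slc7a11* was 27.7-fold and 2.11-fold higher, and the log2 ratios of *Clec4e* went from 4.63 and 3.69 to 3.60 and 1.77. Interferon-inducible genes rose in 4 of 5 genes in young and 1 of 3 in aged mice without these members, and the median log2 ratio of the list in aged mice was then 0.65 over those 3 genes instead of 3.05 over 7. Over the same 7 genes it was 1.19.

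**Figure D3:**
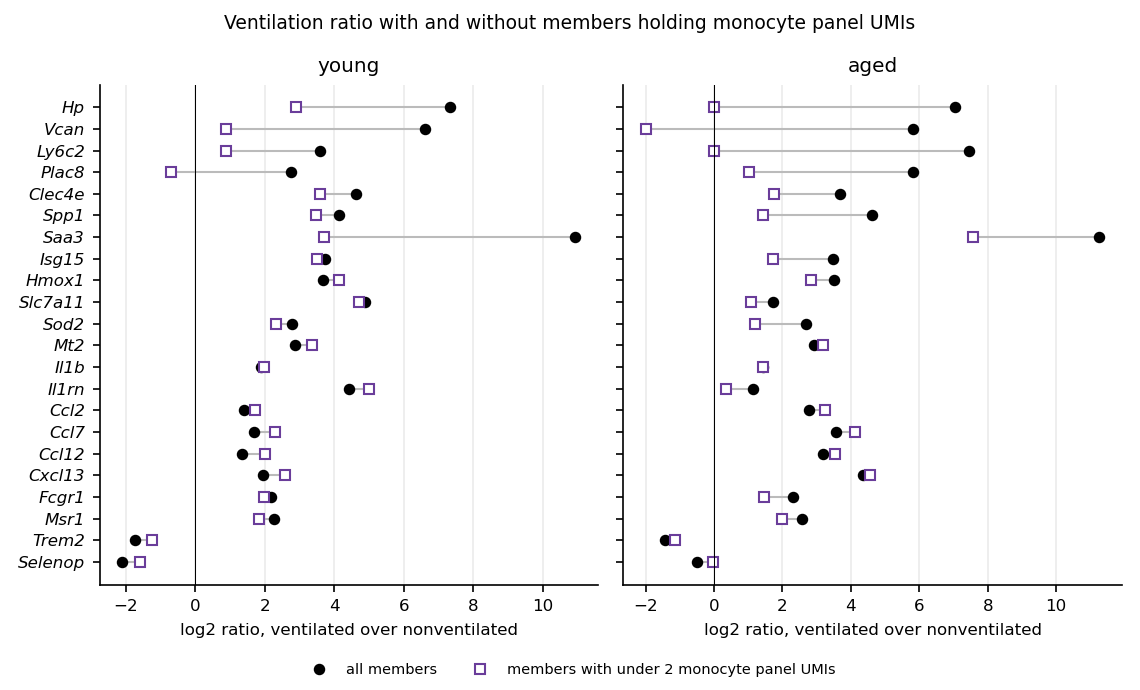
Log2 ratios of ventilated over nonventilated CPM for 22 genes (y axis) in young and aged mice, from all members and from members with fewer than 2 UMIs of the classical monocyte panel. *Il1b* keeps its place (1.88 and 1.98 in young, 1.43 and 1.44 in aged mice), while the panel's own genes, such as *Plac8* and *Vcan*, lose their rise because they chose the members left out.

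Immediate early genes were among the falls after ventilation, mainly in young mice. They respond within minutes to many stimuli, tissue dissociation among them. *Egr1* was at 1739 CPM in young nonventilated, 235 in young ventilated, 835 in aged nonventilated and 539.5 in aged ventilated, with ratios of 0.135 and 0.646. *Fos* was at 2518, 526, 1551 and 869.9 CPM and *Jun* at 1364, 294.5, 669 and 394 CPM. Both nonventilated libraries lay above both ventilated ones for each of these genes, with the widest gap in young mice. *Klf2*, a factor that keeps macrophages quiescent, was at 783.5, 103, 338 and 235 CPM, with ratios of 0.131 and 0.695. In B cell barcodes *Klf2* was at 757, 340, 405 and 312 CPM, also lower after ventilation. *Egr1* (520 and 197 CPM), *Fos* (607 and 214 CPM) and *Jun* (555 and 188 CPM) were lower there in aged mice too. In young mice *Egr1* was higher there (123 and 309 CPM), and *Fos* (254 and 241 CPM) and *Jun* (171 and 174 CPM) were close. In the immediate early list 10 of 19 genes fell and 2 rose in young mice, and 2 of 19 fell and none rose in aged mice. The 4 libraries passed through the same enzymatic digestion and freezing, and the part of dissociation in these values was not tested.

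Some genes that mark macrophages fell in young mice. *Cx3cr1*, the fractalkine receptor, was at 296, 89.9, 282 and 149 CPM, with ratios of 0.304 and 0.529, and was detected in 61.9%, 20.4%, 58.0% and 32.4% of thinned members. *Trem2*, a lipid receptor of phagocytes, was at 171.5, 50.9, 319 and 117 CPM and fell at both ages (0.297 and 0.367). *Agmo*, an enzyme that cleaves ether lipids, was at 306, 4.73, 159.6 and 26.0 CPM, with ratios of 0.0155 and 0.163. *Selenop*, which carries selenium, was at 1203, 280.3, 659 and 469 CPM and *Csf1r* at 669.9, 318, 529 and 432 CPM, with ratios in young mice of 0.233 and 0.475 and in aged mice of 0.712 and 0.817. *Mertk*, a receptor for dying cells, was at 206, 86.3, 157.5 and 215 CPM and had ratios on opposite sides of 1 (0.418 and 1.36). The macrophage identity list had 4 of 15 genes lower and 1 higher in young mice, and 2 lower and 2 higher in aged mice, and it summed to 10997, 8680, 9848 and 11853 CPM. Over all genes 10.3% were lower and 9.67% higher in young mice, and 4.85% and 5.27% in aged mice.

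The 8 largest falls in young mice by the naming rule were *Agmo*, *Inpp4b* (378, 40.2, 246 and 110.1 CPM), *Snx29* (238, 27.2, 131 and 42.8 CPM), *Klf2*, *Egr1*, *Dhx40*, *Adgrl3* and *Ccnd3*. *Inpp4b* is a lipid phosphatase that damps phosphoinositide signals, and *Ccnd3* is cyclin D3 (532, 85.2, 259 and 145 CPM). Several of these genes were higher in B cell barcodes than in members and fell there in young mice too, *Ccnd3* being at 1185, 275, 461 and 301 CPM, *Inpp4b* at 1070.2, 587, 593 and 549 CPM and *Snx29* at 477, 227, 191 and 232 CPM. The summed B cell and plasma cell genes among members, at 237, 7.10, 172 and 93.3 CPM, were also lower in the ventilated libraries, and their part in these falls was not tested. *Agmo* was at 2.76, 0, 29.8 and 1.18 CPM in B cell barcodes, below its level in members of each library. All of them were lower after ventilation in aged mice too. In aged mice the rank was led by genes such as *Blnk* (260.2, 171.5, 347.5 and 75.1 CPM), an adaptor of receptor signaling, and *Lmna* (837, 374, 1130 and 323 CPM), which encodes lamins A and C of the nuclear envelope.

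Genes of antigen presentation by MHC class II were lower after ventilation by small steps. *H2-Aa* was at 6097, 4783, 6401 and 5430 CPM, with ratios of 0.784 and 0.848, and the invariant chain *Cd74* had ratios of 0.874 and 0.868. Of the class II list 7 of 8 genes were lower by any amount in young and 7 of 7 in aged mice, against 48.1% and 50.7% of all genes. Past the fold, 1 of 8 fell in young and none of 7 in aged mice. The gene that fell was *Ciita*, the master regulator of class II transcription, at 84.7, 33.1, 68.2 and 29.5 CPM, which was below the filter on mean CPM in aged mice. Single cells spread far more widely than the libraries did. With 4000 UMIs per cell, the panel of *H2-Aa*, *H2-Ab1*, *H2-Eb1* and *Cd74* ran from 0 to 370 UMIs per cell, with medians of 149, 42, 136 and 93.5 in young nonventilated, young ventilated, aged nonventilated, then aged ventilated. Fewer than 20 UMIs were found in 16 of 63, 20 of 49, 8 of 50 and 20 of 74 members. Some of these low members in the ventilated libraries also held at least 2 UMIs of the classical monocyte panel, and none in the nonventilated libraries did. The ventilated medians include those cells.

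Several genes of the *Lyve1* and *Folr2* resident subset, though not all, had their lowest levels in the aged nonventilated library. *Lyve1*, a hyaluronan receptor, was at 81.7 CPM in young nonventilated, 49.7 in young ventilated, 4.20 in aged nonventilated and 64.5 in aged ventilated. *Folr2*, a folate receptor, was at 115, 41.4, 16.8 and 33.7 CPM. *Cd163*, which takes up hemoglobin bound to haptoglobin, was at 186, 160, 22.0 and 130.5 CPM. The aged over young ratio in nonventilated mice was 0.0514 (0.0137 to 0.137) for *Lyve1*, 0.147 (0.0810 to 0.248) for *Folr2* and 0.118 (0.0715 to 0.186) for *Cd163*. *Pf4*, a platelet chemokine that these macrophages also make, was at 1085, 912, 372 and 500.2 CPM. *Gas6*, a bridge between dying cells and their receptors, was at 204, 35.5, 42.0 and 28.1 CPM, and *F13a1*, coagulation factor XIII and also a monocyte gene, at 670.0, 680.1, 74.5 and 697 CPM. *Gas6* was lowest in aged ventilated and *Selenop*, given above, in young ventilated. Over the resident list, 9 of 10 genes were lower and none higher in aged than in young nonventilated mice, with a median log2 ratio of -2.47. Among all 3396 genes 2.44% were lower past the fold. Several list genes, such as *Folr2*, *Cd163* and *Gas6*, passed the filter only through the young library, so the filter favored falls with age. Summed over all 14 genes without the filter, the list was at 4283, 2562, 1347 and 2281 CPM. After ventilation the aged over young median of the list was 0.03 with 1 of 7 genes lower. In ventilated over nonventilated, 6 of 11 genes were lower in young mice (median log2 ratio -1.05) and 2 of 5 higher in aged mice (0.51).

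Members that held the resident genes were also counted. At 4000 UMIs per cell, 15 of 63, 12 of 49, 4 of 50 and 16 of 74 members had at least 2 UMIs of a panel of *Lyve1*, *Folr2*, *Cd163*, *Cbr2*, *Timd4* and *Fcna*. With all UMIs the numbers were 22, 19, 9 and 26. Since the panel genes belong to the list, the low count in aged nonventilated is not independent of the low levels there. In young mice 15 of 63 and 12 of 49 are close as shares, while the summed list went from 4283 CPM in nonventilated to 2562 CPM in ventilated mice. Fewer cells of a kind and a smaller amount per cell are kept apart by such counts only as far as a panel of 6 genes finds the cells.

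The resident and class II panels lay apart among interstitial macrophages. Members with the resident panel held a median of 2.0, 8.5, 9.5 and 32 class II UMIs in young nonventilated, young ventilated, aged nonventilated, then aged ventilated. The other members held 169.5, 100, 158 and 109.5. Across 236 thinned cells from the 4 libraries the log values had a Pearson r of -0.39, given as a description. The resident and monocyte panels were held together by 2 of 74 cells in aged ventilated and by none in the other libraries.

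**Figure D4:**
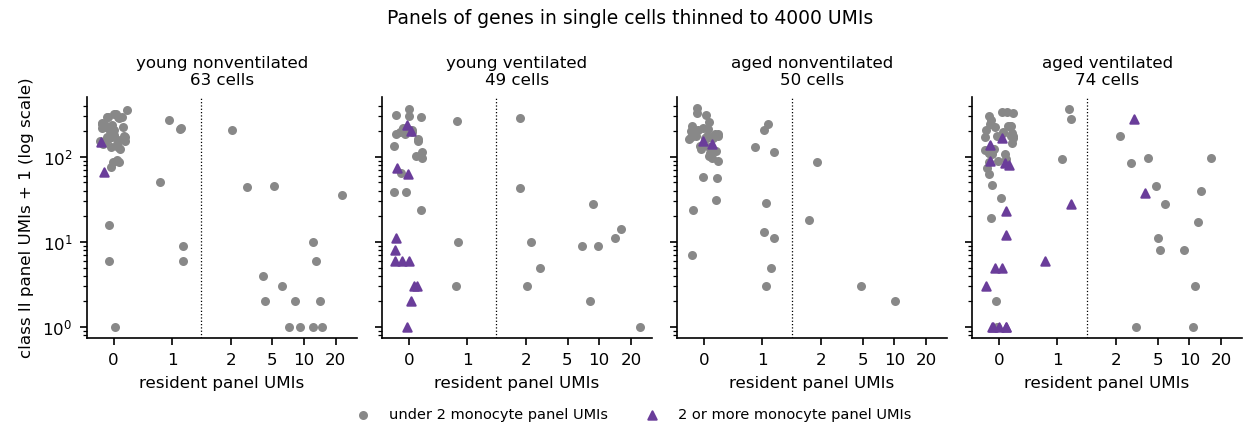
Each point is 1 of 236 interstitial macrophages thinned to 4000 UMIs, in a panel per library. The x axis shows resident panel UMIs with a small random offset, on a scale that is linear up to 2 UMIs and logarithmic above. The y axis shows class II panel UMIs plus 1 on a log scale. Triangles mark cells with at least 2 classical monocyte panel UMIs. Cells far to the right are mostly low in class II, and triangles are frequent in the ventilated libraries (13 of 49 and 19 of 74 against 2 of 63 and 2 of 50).

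Members with and without the resident panel were then compared within each library, with all UMIs. The panel chose the cells, so its own genes are not described. *Pf4* was at 2698, 2322, 674 and 1267 CPM in resident members and 383, 264, 306 and 139 CPM in the rest. *Stab1*, a scavenger receptor, was at 888, 376, 384 and 362 CPM against 91.5, 60.4, 63.8 and 83.6 CPM, and *Mrc1*, the mannose receptor, at 2593, 2333, 1010 and 3201 CPM against 428, 632, 384 and 810 CPM. *Apoe* was at 8206, 7316, 5943 and 7248 CPM against 2648, 856, 2770.5 and 3654 CPM. In each library these 4 genes were higher in resident members, and *H2-Aa* was lower in 3 libraries (2458 against 7679, 3115 against 5549 and 2351 against 7276 CPM) but not in aged ventilated (5753 against 5278 CPM). *Hmox1* after ventilation was higher in resident members (3547 against 278 CPM in young and 1471 against 513 CPM in aged mice). *Il1b* was lower in them in all 4 libraries (411 against 1778, 3025 against 5958, 449 against 1607 and 2721 against 4269 CPM) and higher after ventilation in both kinds of member.

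The second question was age itself. Aged over young comparisons had fewer genes past the fold than ventilation did, 158 of 3396 (4.65%) in nonventilated and 134 of 3294 (4.07%) in ventilated mice. In nonventilated mice, next to the resident genes, CC chemokines were lower, 7 of 11 past the fold against 2.44% of all genes. Their median log2 ratio was -1.63. A single cell gave 24.96% of the UMIs of the CC list in young nonventilated, against 12.67% in aged nonventilated. The part of that cell in these ratios was not tested. Some list genes, such as *Ccl7* and *Ccl17*, passed the filter only through the young library, so the filter favored falls with age. *Ccl2* had a ratio of 0.223 (0.188 to 0.264). Without the resident members 7 of 9 genes of the CC list were still lower. In ventilated mice 6 of 12 CC chemokine genes were lower with age (median log2 ratio -0.99), against 2.34% of all genes. *Il1rn* was 0.359 and *Ccl3* 0.349 of the young level.

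Higher with age were the lysosomal genes as a list, by small steps. In nonventilated mice 16 of 18 were higher (median log2 ratio 0.34) and in ventilated mice 17 of 18 (0.47), although 1 gene in each comparison passed the fold, against 51.9% and 50.7% of all genes that were higher by any amount. That gene was *Ctsd*, the protease cathepsin D, at 218, 226, 476 and 520 CPM, with aged over young ratios of 2.18 and 2.30. A single cell gave 14.2% of the UMIs of the lysosomal list in aged nonventilated, against 4.34% in young nonventilated. In aged and young ventilated these shares were 9.51% and 3.97%. Among the 10 and 7 nonventilated members without 2 or more markers of another cell type, the log2 ratio of *Ctsd* was -0.83 and that of *Lgals3* -1.03. *Ctss*, the cathepsin that trims the class II invariant chain, was at 1103, 1141, 1671 and 1667 CPM, with ratios of 1.52 and 1.46. Neither gene differed by as much between ventilated and nonventilated mice of 1 age. Of the lipid and foam cell genes, 3 of 14 rose with age in nonventilated mice (median log2 ratio 0.47), against 2.21% of all genes. The list of 12 alveolar macrophage genes outside the rule, which *Lpl* leads, summed to 381, 567, 875 and 489 CPM, so it was highest in the aged nonventilated library, where 21.6% of its UMIs came from 1 cell. Its part in the lipid gene ratios was not tested. *Lpl*, lipoprotein lipase, was at 173, 331, 574 and 239 CPM and *Lgals3*, galectin 3, at 687, 729.7, 1931 and 1205 CPM, with 37% of the aged nonventilated UMIs of *Lgals3* from 1 cell. *Cxcl1* (2.73-fold), *Anxa1* (207, 199, 546 and 344 CPM), a mediator of resolution, and *Id2* (113, 419.9, 310 and 314 CPM), an inhibitor of transcription factors, were among the largest rises by rank. *Chst11*, a chondroitin sulfotransferase, led them at 24.9, 497, 178.5 and 112 CPM. The share of thinned members with *Chst11* was 9.52%, 36.7%, 40.0% and 20.3%. In thinned B cell barcodes it was 6.17%, 25.9%, 20.6% and 12.5%, so that the lowest library was the same in both kinds of cell. With all UMIs the B cell shares were 8.54%, 42.9%, 31.2% and 27.8%.

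In ventilated mice *Vcam1*, an adhesion molecule for leukocytes, led the rises with age at 166.5, 103, 144 and 447 CPM (4.34-fold). *Mertk* was 2.49-fold and *Cadm1* (181, 54.4, 418 and 170 CPM) 3.12-fold higher. *Egr1* and *Klf2*, which had fallen further in young mice, were 2.29-fold and 2.28-fold higher. Among the 15 and 9 ventilated members without 2 or more markers of another cell type, *Cadm1*, *Mertk* and *Egr1* had log2 ratios of -1.24, -0.83 and -0.19. *Mrc1* was at 1084, 1167, 495.5 and 1575 CPM. It was 0.457 of the young level in aged nonventilated mice and rose 3.18-fold with ventilation in aged mice against a ratio of 1.08 in young mice.

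The third comparison set the ventilation ratios of interstitial macrophages beside those of alveolar macrophages (182, 183, 186 and 103 cells) and nonclassical monocytes (181, 182, 389 and 209 cells) of the same libraries. In alveolar macrophages 8.12% of genes were past the fold in young and 2.10% in aged mice, and in nonclassical monocytes 17.2% and 13.3%. CC chemokines had median log2 ratios of 1.71 and 2.22 in interstitial macrophages, 0.44 and 0.38 in alveolar macrophages and 4.39 and 1.82 in nonclassical monocytes. Interferon-inducible genes had 2.44 and 3.05, -0.16 and -0.13 (1 gene past the filter), and 0.96 and 1.39. Several of the interstitial genes passed the filter only through the ventilated libraries, so no order of the populations is read from these medians. Without the members holding the monocyte panel the interstitial medians were 2.10 and 0.65, so the aged value also depended on those members. *Il1b* rose further in interstitial than in alveolar macrophages, by 1.05 (0.90 to 1.19) in young and 1.67 (1.50 to 1.83) in aged mice on the log2 scale. *Ccl2* exceeded alveolar macrophages by 1.84 (1.63 to 2.05) and 2.73 (2.40 to 3.05). For *Fcgr1* the differences were 2.77 and 2.73, mostly from the rise in interstitial macrophages (2.17 and 2.29). It was slightly lower after ventilation in alveolar macrophages (-0.57 and -0.40). Among NRF2 genes the differences varied with gene and age. *Hmox1* differed by 0.13 (-0.20 to 0.47) in young mice, where the interval includes 0, and by 1.73 (1.35 to 2.11) in aged mice, and *Slc7a11* by 3.09 (2.42 to 3.77) and 0.32 (0.03 to 0.60). The counting intervals do not hold the spread between mice or libraries.

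Against nonclassical monocytes, interstitial macrophages rose less in *Cxcl2* (-2.47 and -2.73), *Ccl2* (-3.21 and -1.23) and *Ccl4* (-4.05 and -2.56). *Egr1* fell in interstitial macrophages of young mice and rose in nonclassical monocytes (1.19), a difference of -4.07. *Trem2* fell at both ages in interstitial macrophages and less or not at all in alveolar macrophages (-0.69 and 0.11).

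**Figure D5:**
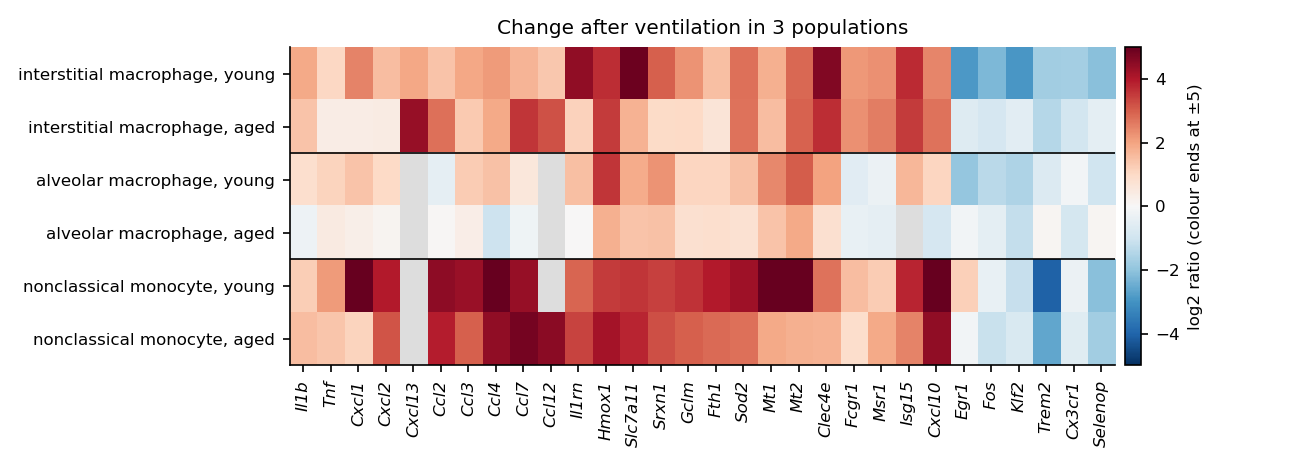
Log2 ratios of ventilated over nonventilated CPM for 30 genes in interstitial macrophages, alveolar macrophages and nonclassical monocytes of young and aged mice, with red above 0, blue below 0 and grey where the gene had fewer than 20 UMIs in both libraries. *Fcgr1* and *Msr1* are red in the interstitial macrophage rows and pale blue in the alveolar macrophage rows, and *Egr1* is blue in young interstitial macrophages and red in young nonclassical monocytes.

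Signals of other cell types among the members were counted for the whole of each marker list. Fibroblast genes summed to 800.4, 59.1, 315 and 36.5 CPM in young nonventilated, young ventilated, aged nonventilated, then aged ventilated, with 63.5%, 62.0%, 61.7% and 23.1% of these UMIs from 1 cell and *Inmt* the most abundant gene of the list. The fibroblast collagen gene *Col1a2* had 108, 3, 32 and 4 UMIs, so the fibroblast signal was highest in the nonventilated libraries. B cell and plasma cell genes summed to 237, 7.10, 172 and 93.3 CPM, led by *Ighm* in the nonventilated libraries, and *Cd79a* was at 0 by the rule. Epithelial genes summed to 201, 213, 209 and 136 CPM with *Scgb1a1* the most abundant in each library, and endothelial genes to 158, 240.1, 163 and 309 CPM, with *Cdh5* at 0 by the rule. Neutrophil genes summed to 193, 402, 77.7 and 359 CPM, higher in both ventilated libraries, while *Ly6g*, a defining neutrophil marker, was at 0 in all 4. Genes of T cells, NK cells and innate lymphoid cells summed to 45.9, 189, 155 and 90.5 CPM, mostly *Il7r*, and *Cd3e* had 0, 0, 4 and 0 UMIs. Dendritic cell genes summed to 1077, 2841, 490.3 and 1109 CPM, mostly *Mgl2* and *Ccl17*, while *Flt3*, the growth factor receptor of dendritic cells, had 11, 1, 12 and 11 UMIs. Nonclassical monocyte genes summed to 779, 498, 481 and 593 CPM, mostly *Nr4a1*. The alveolar macrophage genes that the rule used summed to 18.9, 48.5, 32.5 and 91.9 CPM, led by *Chil3*, with 68.4%, 46.3%, 45.2% and 45% of these UMIs from 1 cell. Smooth muscle and pericyte genes summed to 45.9, 15.4, 37.8 and 26.7 CPM, basophil and mast cell genes to 0.997, 1.18, 1.05 and 14.7 CPM, and erythroid genes to 0.997, 2.37, 1.05 and 0.702 CPM. No doublet caller was run, and the part of doublets or free RNA in the ratios was not tested.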

How the data were processed

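Members and gene lists were chosen with earlier results of these data known. The deposited count matrices held UMI counts per gene and barcode from 10x Genomics libraries, and per the labels the authors made them with Cell Ranger 7.0.0 on mm10. The authors pooled cells of 3 mice for each library before sequencing. No doublet caller was run here. The study removed likely doublets by its upper limit on genes per barcode, after these matrices were made. All 4 matrices, with 32285 genes each, were filtered to barcodes with 200 to 7500 genes and at most 10% mitochondrial UMIs, a wider upper gene limit than the study's own, which was run as an alternative. No cell annotation was used. Member counts were summed per library and divided by their total to give CPM, with 1 UMI added before log2. Genes were counted as past the fold at 2-fold or more, provided that both libraries averaged 50 CPM or more and 1 of them held 20 UMIs or more. Intervals are 95% exact Poisson or Clopper-Pearson intervals and cover counting error only. They were run on simulated sums drawn from the Poisson counts that they assume. That simulation held no clustering of UMIs in single cells, so it cannot show how the intervals perform where 1 cell gives many UMIs. Because each group was 1 library of pooled mice, no model or test between groups was fitted.

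Genes were named by a rule. For each comparison it took the 8 largest rises and the 8 largest falls among genes averaging 100 CPM or more, with a UMI in at least 10% of members, no cell giving over 25% of the UMIs in the higher library, and an interval that left out 1. Examples were added from 45 gene lists with 577 genes, of which 573 were found by symbol, and 38 symbols with 2 identifiers were kept apart. Other genes named in the text were chosen after their values were seen. A few genes, among them 1 of the classical monocyte panel, are not reported here by name. Shares of cells and panels were taken after thinning each cell to 4000 UMIs, which left out 0, 2, 2 and 2 shallower members. Alveolar macrophages, nonclassical monocytes and B cell barcodes were taken from the same filtered barcodes by marker genes. Alternatives were other gene, mitochondrial, C1q and alveolar marker limits, median-of-ratios size factors, means of per-cell CPM, thinning, other CPM minimums, and leaving out members with markers of other cells. Python 3.11.15, numpy 2.4.6, scipy 1.17.1, pandas 2.3.3 and matplotlib 3.10.9 were used.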

Additional observations from a re-analysis of the deposited data

Results flagged for a closer look

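In 11 named genes the ventilation ratio lay on opposite sides of 1 at the 2 ages, with both counting intervals leaving out 1 and at least 1 of the ratios past 2-fold. Some of the named genes were chosen after their values were seen, so 11 is not a count over all genes. *Zbtb16*, a gene of the glucocorticoid list that was not named, also changed direction, with -1.92 (young) and 0.84 (aged) on the log2 scale. The difference between the ages was not tested, since each group was 1 library. As log2 ratios in young and aged mice, *Chst11* had 4.26 and -0.67, *Itpkb* (an inositol phosphate kinase) 1.68 and -0.70, *Atp2b4* (a calcium pump) 1.74 and -0.71, and *Rnf180* (a ubiquitin ligase) 1.71 and -0.48. *Ahcyl2* had 1.37 and -0.48 and *Lpl* 0.93 and -1.26. In these 6 genes the young ventilated and aged nonventilated libraries were both above young nonventilated, except *Ahcyl2*, which was at 132 CPM in young nonventilated and 127 CPM in aged nonventilated. In the other 5 genes the young ratio was the negative one: *Stab1* had -1.05 and 0.51, *Vcam1* -0.69 and 1.63, *Mertk* -1.24 and 0.44, *Cass4* (an adaptor of focal adhesions) -0.94 and 1.18, and *Per1* (a clock gene that glucocorticoids induce) -1.51 and 0.60.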

How the results depend on the processing

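No paired analysis was possible because each group was 1 library, and leaving out a replicate was not possible for the same reason. Numbers of genes past the fold were 670 and 342 for ventilation in young and aged mice and 158 and 134 for age in nonventilated and ventilated mice. With no CPM filter they were 1757, 1093, 575 and 630, and with a mean of at least 10 CPM 1754, 1055, 574 and 578, where more genes with few UMIs entered. Leaving out members with 2 or more markers of another cell type kept 10, 15, 7 and 9 cells, lowered the shares of barcodes to 0.340%, 0.451%, 0.231% and 0.353%, and gave 545 genes for ventilation in aged and 434 for age in ventilated mice. Under it 11 log2 ratios that were past the fold with all members turned sign. They were *Saa3* (-0.46), *Cxcl9* (-0.46), *Cxcl13* (-4.98), *Ccl2* (-0.13), *Ccl3* (-0.82) and *Ccl4* (-0.35) for ventilation in aged mice, *Cadm1* (-1.24), *Mertk* (-0.83) and *Egr1* (-0.19) for age in ventilated mice, and *Lgals3* (-1.03) and *Ctsd* (-0.83) for age in nonventilated mice. *Saa3* and *Cxcl9* then had 0 UMIs in both aged libraries, so their values are only the added 1 UMI over unequal depth. Without the members holding the classical monocyte panel, 259 genes were past the fold for age in ventilated mice, and *Vcan* in aged (-1.99) and *Plac8* in young mice (-0.69) turned, as panel genes that chose the members left out. Without the resident panel members the panel gene *Cd163* for ventilation in aged mice (-1.04) and *Ccl24* for age in nonventilated mice (0.84) turned. For the genes outside the panels that held UMIs the cause was not tested. At least 20 C1q UMIs gave a young ventilated share of 1.14%. Panels and the setting with over 0.5% of UMIs from other cell types were chosen after seeing the data. Of 4329 values recomputed for named genes and lists, 15 changed sign from a main value past 2-fold. Sign changes of smaller main values were not counted. Many more values left the counting interval of the main value without such a turn. With each cell thinned to 4000 UMIs 199 did and 134 did not, and with means of per-cell CPM 141 and 192. Leaving out members with 2 or more markers of another cell type moved 248, and the limit of fewer than 2 alveolar macrophage markers moved 9. The other gene counts stayed within 1.5 times. Size factors moved young ventilated by 0.10 and young nonventilated by -0.06 on the log2 scale. Depth limited genes below about 3 UMIs per library.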

Other observations

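Glycolytic genes moved one way at both ages, by more in young mice. All 9 genes past the filter in the hypoxia and glycolysis list were higher after ventilation (against 51.9% of all genes in young and 49.3% in aged mice), 5 of them past the fold in young mice (median log2 ratio 1.01) and none in aged mice (0.43). *Slc2a1*, the glucose transporter GLUT1, was at 21.9, 115, 50.4 and 68.7 CPM in young nonventilated, young ventilated, aged nonventilated, then aged ventilated, and *Pkm*, pyruvate kinase, at 155.5, 539, 277 and 457 CPM. *Hk2*, hexokinase 2, was at 75.8, 198, 96.6 and 169 CPM. The aged nonventilated level was above the young one in all 3 genes, and all 8 genes of the list past the filter were higher with age in nonventilated mice (0.68). In aged nonventilated 1 cell gave 23.3% of the list's UMIs, against 8.61% in young nonventilated. In B cell barcodes *Slc2a1* was at 71.7, 124, 63.4 and 60.4 CPM, above its level in members except in aged ventilated. *Pkm* and *Hk2* were lower there than in members of each library.

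In the list of glucocorticoid and metal response genes, 2 of 10 genes rose and 3 fell in young and 2 of 10 rose in aged mice. Over all genes 9.67% were higher and 10.3% lower in young mice, and 5.27% higher in aged mice. The median log2 ratios of the list were 0.06 and 0.67, and its members did not move together. *Tsc22d3* (GILZ) was at 262, 110.0, 184 and 167 CPM, *Fkbp5* at 197, 115, 131 and 237 CPM and *Per1* at 79.7, 27.2, 40.9 and 63.1 CPM. Their ventilation ratios in young mice were 0.420, 0.581 and 0.341, and in aged mice 0.909, 1.81 and 1.54. In B cell barcodes *Tsc22d3* was at 430, 149, 235 and 213 CPM, *Fkbp5* at 66.2, 75.8, 64.1 and 82.9 CPM and *Per1* at 53.8, 30.9, 49.5 and 26.1 CPM. The young falls of *Tsc22d3* and *Per1* were thus also seen there. *Hspa1a*, an inducible chaperone, fell at both ages (124, 20.1, 99.7 and 37.9 CPM). *Areg*, a growth factor for epithelium, was at 12.0, 136, 42.0 and 47.0 CPM and *Il10*, an anti-inflammatory cytokine, at 19.9, 112, 33.6 and 36.5 CPM, with the young ventilated library highest for both. *Cdkn1a*, the cell cycle inhibitor p21, was at 422, 607, 416 and 384 CPM and did not reach the fold at either age. MHC class I genes had no member past the fold after ventilation, and 7 of 8 were higher with age in nonventilated (median log2 ratio 0.32) and in ventilated mice (0.32), against 51.9% and 50.7% of all genes.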
